A study of Mus musculus with 15 samples.

Results

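The genes described here are those of the collagens, laminins and integrins, taken by their symbols (Col followed by a number, a and a number, Lama, Lamb or Lamc, and Itga or Itgb) where at least 10 counts were present in at least 3 of 15 libraries. Of 55984 symbols in the counts, 86 carried such a name and 67 met the count rule: 31 collagen chains, 11 laminin chains, 22 integrin chains and 3 genes that share only the name (Itgb1bp1, Itgb1bp2 and Itgb3bp, which code for proteins named after their binding to an integrin tail). The libraries came from hepatocytes of WT C57BL/6JJcl male mice, 7 to 15 weeks old, isolated by collagenase perfusion and sorted by flow cytometry on the DNA dye Hoechst. The 4 groups were 2n-whole (diploid cells), 4n-whole (all tetraploid cells), 4n-bottom (tetraploid cells with a low Hoechst peak, enriched for binucleated cells) and 4n-top (a high peak, enriched for mononucleated cells, from a single round of sorting). The first 3 groups held 4 mice each and 4n-top held 3, mice 2, 3 and 4. The groups of 4n cells were enriched and not pure for the number of nuclei, and 2n cells were pelleted after the sort at a higher centrifugal force than 4n cells, so ploidy and that step cannot be told apart.

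Collagens are built from 3 chains wound into a triple helix, and laminins from 1 alpha, 1 beta and 1 gamma chain. Collagen IV and laminins form the network of basement membranes, while fibrillar collagens form the fibres of the interstitial matrix. Integrins are receptors of 1 alpha and 1 beta chain that tie the cell to these proteins, to fibronectin and to other ligands, and most alpha chains pair with the beta 1 chain. In the liver, hepatocytes border the space of Disse, which has no continuous basement membrane, and stellate cells are known as the main makers of fibrillar collagen. Hepatocytes themselves are known to make collagen XVIII, whose C-terminal fragment is endostatin.

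Total counts per library ranged from 22049498 to 42096421, at which 3 counts, the limit taken for detection, correspond to between 0.0693 and 0.120 CPM (counts scaled to a common library size after TMM normalization), a limit that covers counting error only. Mitochondrial genes took 20.5% to 26.2% of the counts in 2n-whole, 8.84% to 18.5% in 4n-whole, 12.2% to 23.6% in 4n-bottom and 11.9% to 13.0% in 4n-top. With the mitochondrial genes left out before normalization, the same members were called in each comparison. The hepatocyte marker albumin (Alb) stood at 48549 CPM or more in every library. The endothelial markers, 10 genes in all, summed to 21.2 to 33.5 CPM in 2n-whole, 7.62 to 39.8 in 4n-whole, 6.36 to 34.5 in 4n-bottom and 6.90 to 25.6 in 4n-top, and Ptprb was the only one of them called, lower in 4n-whole than in 2n-whole. The summed markers of Kupffer cells and macrophages reached 9.71 CPM in 2n-whole and at most 4.01 CPM in 4n libraries, and those of stellate cells 6.71 and 4.29 CPM. The cholangiocyte markers summed to 54.8 to 67.9 CPM in 2n-whole and 28.4 to 56.2 CPM in 4n libraries. The sums for lymphocytes, platelets, neutrophils and mesothelial cells did not exceed 1.98 CPM. Of the cholangiocyte markers, Spp1 was called lower in the 3 groups of 4n cells than in 2n-whole and Sox9 in 4n-whole. Krt19, which defines cholangiocytes, averaged 0.717 CPM in 2n-whole and 0.0799, 0.224 and 0 CPM in 4n-whole, 4n-bottom and 4n-top, and was not called. In the same order, the median log2 fold change against 2n-whole was -0.52, -1.08 and -1.21 for the endothelial list, -2.23, -1.58 and -3.75 for the Kupffer list and -2.81, -1.90 and -2.73 for the cholangiocyte list. For the stellate list, with 3 genes tested, it was nearer 0, at -0.31, -0.19 and -0.15. The endothelial, Kupffer and cholangiocyte lists thus lay lower in 4n cells. So did Itga6, Lama5, Col4a5, Nid1 and other genes of the matrix and adhesion lists below. The part of these cell types in those results was not tested. In such bulk samples, fewer cells of a type and less RNA per cell cannot be told apart.

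By the test described below, 3 members differed among the 4 groups, Col27a1, Itga6 and Lama5, and the starts of the genes Col27a1 and Lama5 are shown as examples. Col27a1 codes for the chain of a fibrillar collagen, Itga6 for the integrin alpha 6 chain, a laminin receptor, and Lama5 for the laminin alpha 5 chain. Each sequence runs 5′ to 3′ on the strand of the gene in GRCm39, from 250 bases before to 50 bases after the start of its canonical GENCODE M39 transcript, at chr4:63133422-63133721 (+) for Col27a1 and chr2:179867663-179867962 (-) for Lama5. Capitals mark GC boxes, GGGCGG or its reverse complement CCGCCC, the letters to which factors of the Sp family are known to bind, with overlapping matches counted.
Col27a1: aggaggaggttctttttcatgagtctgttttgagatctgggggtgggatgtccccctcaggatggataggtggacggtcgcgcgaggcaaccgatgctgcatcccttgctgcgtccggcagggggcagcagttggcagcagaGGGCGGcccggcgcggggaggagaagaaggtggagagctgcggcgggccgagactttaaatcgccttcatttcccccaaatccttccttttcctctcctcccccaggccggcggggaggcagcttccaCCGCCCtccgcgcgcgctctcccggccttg
Lama5: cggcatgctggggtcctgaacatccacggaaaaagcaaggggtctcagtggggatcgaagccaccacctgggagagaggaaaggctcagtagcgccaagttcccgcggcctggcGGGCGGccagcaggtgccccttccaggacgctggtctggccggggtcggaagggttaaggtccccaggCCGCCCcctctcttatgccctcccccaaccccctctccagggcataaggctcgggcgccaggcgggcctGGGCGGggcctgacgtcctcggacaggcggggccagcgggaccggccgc
The Lama5 window held 3 GC boxes at 70.3% G and C, and the Col27a1 window 2 at 64.7%. The Itga6 window, which is not printed, held 6 at 67.7%. Over windows of the same length at 21738 protein-coding genes, 42.5% held a GC box and the median G and C content was 54.3%, and of the 67 members 34 (50.7%) held one. None of the windows of Col27a1, Lama5 and Itga6 held a match to the TATA or CCAAT box searched for. A match is a description of the letters only.

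Col18a1, the chain of collagen XVIII, made up 71.8% to 77.7% of all counts on the members in every library. Levels between genes are compared as CPM per kb of exon, and on that scale Col18a1 averaged 282 over the 15 libraries, Itgb1 27.3, Col5a3 12.3, Itgb5 11.3, Itga5 9.17, Col27a1 5.11, Itgav 4.09 and Col15a1 3.07. Col18a1 lies at chr10:76888012-77002390 and overlaps Slc19a1 on the other strand, and whether the counting used the strand of the reads is not given in the sources used here. All members together took 0.201% to 0.399% of the counts. Of the 67, 28 had 10 counts or more in all 15 libraries and 34 were at 0 in at least 1 library. A mean of 1 CPM or more was also reached by 28 members.

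**Figure D1:**
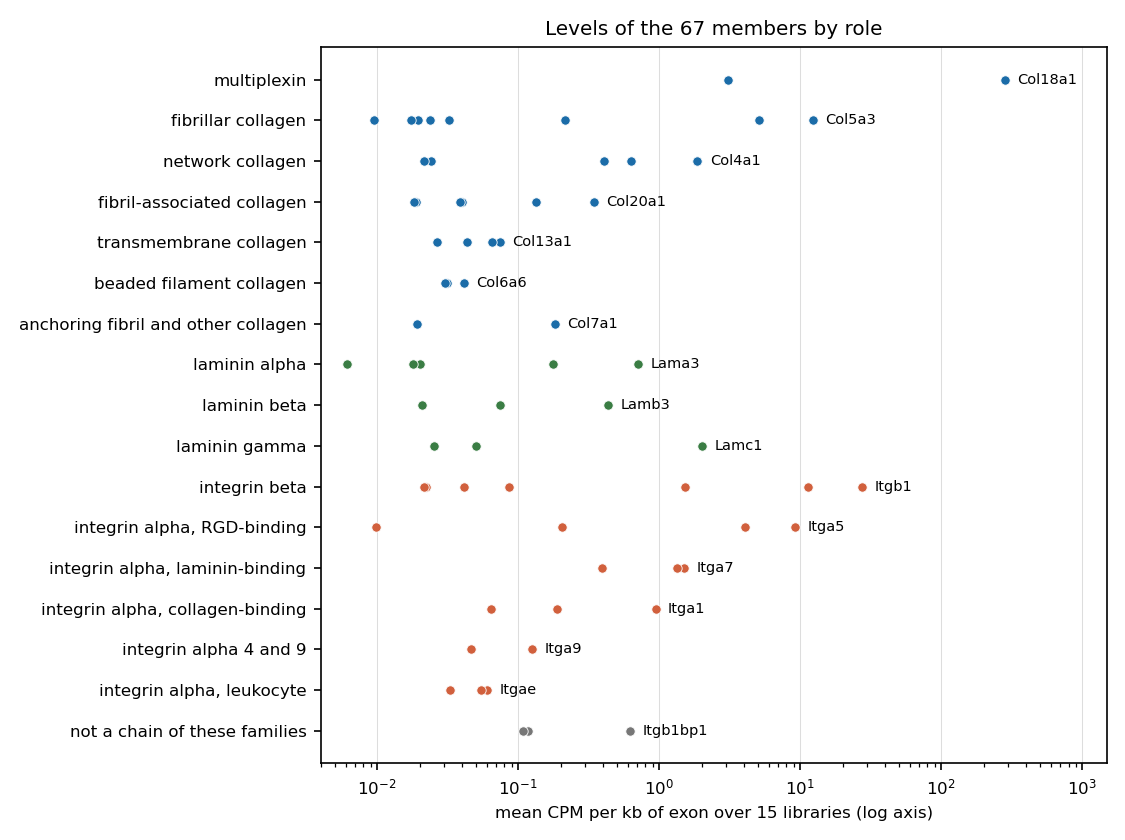
Mean level of each of the 67 members over the 15 libraries, in CPM per kb of exon on a log axis, by the role of its product, with 1 point per gene (collagens blue, laminins green, integrins orange, other genes grey) and the highest gene of each role named. Col18a1 at 282 lies an order of magnitude above the next member, Itgb1 at 27.3.

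The highest member of each role was as follows. Among the fibrillar collagens it was Col5a3 with 12.3 CPM per kb, while the chains of collagen I and collagen III, the bulk of fibrous tissue, stood at 0.0197 (Col1a1), 0.00951 (Col1a2) and 0.0175 (Col3a1). Col4a1, a chain of the basement membrane collagen IV, led the network-forming collagens with 1.87, Col20a1 the fibril-associated collagens with 0.344, Col7a1, the collagen of anchoring fibrils, its class with 0.182, Col13a1 the transmembrane collagens with 0.0743 and Col6a6 the beaded filament collagens with 0.0411. Among the laminins, the leading chains were Lama3 at 0.706 (alpha), Lamb3 at 0.435 (beta) and Lamc1 at 2.01 (gamma). Of the integrin alpha chains, Itga5, the fibronectin receptor chain, led those that bind the RGD motif with 9.17, Itga7 the laminin-binding chains with 1.498, Itga1 the collagen-binding chains with 0.943, Itga9 the pair of alpha 4 and 9 with 0.125 and Itgae the leukocyte chains with 0.0605. Itgb1bp1 led the genes that are no chains with 0.626. Some of these leading genes overlap protein-coding genes on the other strand: Lamb3 (G0s2 and Hsd11b1), Itga7 (Tmt1b), Itga1 (Mocs2), Col4a1 (Col4a2), Col6a6 (Pik3r4), Itgae (Haspin) and Itgb1bp1 (Asap2 and Cpsf3). Itga1 also overlaps Pelo and Gm49395, protein-coding genes on its own strand. The part of those genes in the levels given was not tested.

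The question of whether these genes differ with ploidy was put to a quasi-likelihood test in edgeR over all 17488 genes with enough counts, with the mouse as a replicate block, and a gene was called at an adjusted p (Benjamini-Hochberg over all of them) under 0.05 with a log2 fold change beyond 0.5. Of the 67 members, 65 were tested, Col1a2 and Col28a1 being too low. Over the 4 groups at once, where only the adjusted p counts, 3 of 65 members differed, against 1.95% of all genes. Without the block, 0 of 65 were called in any comparison (edgeR). Few genes of any kind were called without the block. Of all 17488, 19 were higher and 21 lower in 4n-whole against 2n-whole, where the fit with it called 305 and 302. DESeq2 with the block called 5 members over the 4 groups, and of all genes 359 higher and 455 lower in 4n-whole. Its calls of all genes over the 4 groups are not given here, so nothing is read from the 5.

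In 4n-whole against 2n-whole, 2 members were higher (Col27a1 and Col5a3) and 2 lower (Itga6 and Col4a5), which is 3.08% of the members in each direction, where 1.74% of all genes were called higher and 1.73% lower. At such counts the shares of the members and of all genes differ by single genes. In 4n-top against 2n-whole, 0 members were higher and 2 lower (Lama5 and Itga6), against 0.440% and 0.520% of all genes. An unadjusted p under 0.05 was reached there by 16 of 65 (24.6%, beside 11.3% of all genes), and in 4n-whole by 13 of 65 (20%, beside 20.4%). Since the count rule favours some members in 2n-whole (below), nothing is read from such shares of unadjusted p. In 4n-bottom against 2n-whole, 0 members were called in either direction by edgeR, against 0.234% of all genes higher and 0.229% lower, and 8 of 65 had an unadjusted p under 0.05 (12.3%, beside 10.2% of all genes). In 4n-top against 4n-bottom, 0 members were called, against 0.00572% of all genes higher and 0.00572% lower, and 3 of 65 had an unadjusted p under 0.05 (4.62%, beside 2.79% of all genes). Because the first 3 of these comparisons share the 2n-whole libraries, their values are given side by side and were not set against each other as separate evidence.

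**Figure D2:**
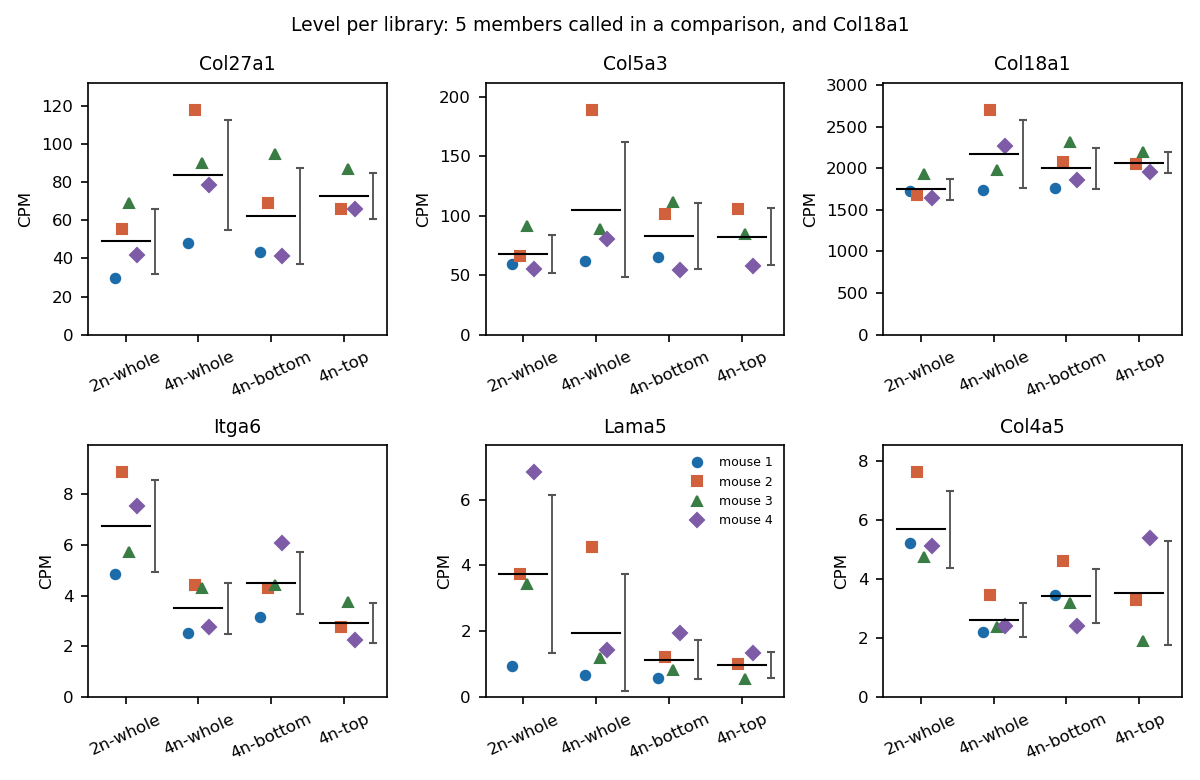
CPM per library (vertical axes, starting at 0) in the 4 groups for the 5 members called in a comparison and for Col18a1, with 1 symbol per mouse, a line at the mean of each group and a bar of 1 SD to its right (n = 4, and n = 3 in 4n-top). Itga6 lies at or below 4.41 CPM in the 4n-whole libraries and at or above 4.86 CPM in the 2n-whole libraries, while the groups overlap for Col27a1.

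Col27a1 (chr4:63132241-63253228) was the member with the smallest p in 4n-whole against 2n-whole. Its level in mice 1, 2, 3 and 4 was 29.9, 55.4, 69.2 and 41.7 CPM in 2n-whole and 48.2, 118, 90.3 and 78.4 CPM in 4n-whole. In 4n-bottom it was 43.4, 69.1, 94.7 and 41.0 CPM, and in 4n-top 65.7, 86.8 and 65.8 CPM in mice 2, 3 and 4. The groups overlapped, since the mice differed, but each mouse had more Col27a1 in 4n-whole than in 2n-whole. The log2 fold change was 0.78 ± 0.13 (SE) in 4n-whole against 2n-whole (edgeR quasi-likelihood test, adjusted p = 0.000444, higher in 4 of 4 mice), which is 1.72-fold. Against 2n-whole it was 0.34 ± 0.13 in 4n-bottom (adjusted p = 0.354, higher in 3 of 4 mice) and 0.43 ± 0.14 in 4n-top (adjusted p = 0.190, higher in 3 of 3 mice). Over the 4 groups the adjusted p for Col27a1 was 0.00483, and without the replicate block that for 4n-whole against 2n-whole was 0.311.

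Col5a3 (chr9:20681337-20726418) codes for the alpha 3 chain of the fibrillar collagen V. It stood at 59.1, 65.9, 91.0 and 55.3 CPM in 2n-whole and at 62.1, 189, 88.7 and 80.5 CPM in 4n-whole (mice 1 to 4). The groups overlapped and mouse 2 of 4n-whole was far above the other 3. The log2 fold change was 0.54 ± 0.16 (edgeR, adjusted p = 0.0419, higher in 3 of 4 mice), and without mouse 2 it was 0.20 with an adjusted p of 0.510, so the call rested on that mouse, and without mouse 4 the adjusted p was 0.148. Of 14 alternatives, 9 gave no call for Col5a3, among them DESeq2 with the block (adjusted p = 0.162), ComBat-seq before DESeq2 (0.0765) and halved counts (0.0520). In 4n-bottom the level was 65.2, 102, 112 and 54.5 CPM and in 4n-top 105, 84.3 and 57.5 CPM, and neither was called. The partners of this chain in collagen V were near the limit of detection, with at most 1.22 CPM of Col5a1 and 1.57 CPM of Col5a2 in any library.

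Itga6 (chr2:71575960-71689757) was lower in 4n-whole and in 4n-top than in 2n-whole. Mice 1 to 4 had 4.86, 8.87, 5.70 and 7.53 CPM in 2n-whole, 2.52, 4.41, 4.32 and 2.75 CPM in 4n-whole and 3.14, 4.32, 4.43 and 6.09 CPM in 4n-bottom. In 4n-top, mice 2 to 4 had 2.77, 3.75 and 2.23 CPM. All 2n-whole libraries were above all those of 4n-whole and 4n-top, while 4n-bottom overlapped with 2n-whole. The log2 fold change against 2n-whole was -0.95 ± 0.24 in 4n-whole (edgeR, adjusted p = 0.0209, lower in 4 of 4 mice), -1.35 ± 0.28 in 4n-top (adjusted p = 0.00757, lower in 3 of 3 mice) and -0.58 ± 0.24 in 4n-bottom (adjusted p = 0.380, lower in 4 of 4 mice). Between 4n-top and 4n-bottom it was -0.77 ± 0.28, with all 3 mice lower in 4n-top, and here Itga6 had the smallest unadjusted p of the members (0.00965), with an adjusted p of 1. Without the replicate block the adjusted p of Itga6 was 0.209 in 4n-whole and 0.244 in 4n-top. Without mouse 2 it was 0.0739 and 0.07, and without mouse 4 it was 0.221 and 0.232.

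The integrin alpha 6 chain pairs with beta 1 or beta 4 and binds laminins. Itgb1 stood at 162 ± 2.07 CPM (SD, n = 4) in 2n-whole, 160 ± 20.7 in 4n-whole, 165 ± 16.0 in 4n-bottom and 166 ± 8.90 (n = 3) in 4n-top, and no comparison called it. Itgb4, which binds to keratin filaments at hemidesmosomes, reached at most 1.44 CPM. The other laminin-binding alpha chains were higher than Itga6 per kb and were not called, Itga7 at 9.93 ± 3.15 CPM in 2n-whole and 13.6 ± 4.2 in 4n-whole, and Itga3 at 7.65 ± 3.16 and 7.4 ± 2.80.

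Lama5 (chr2:179818166-179867712) was lowest in 4n-top. The 2n-whole libraries of mice 1 to 4 had 0.937, 3.74, 3.44 and 6.84 CPM, from 38, 124, 99 and 238 counts. In 4n-whole there were 0.669, 4.57, 1.17 and 1.42 CPM, in 4n-bottom 0.572, 1.2, 0.810 and 1.94 CPM, and in 4n-top 1.02, 0.547 and 1.32 CPM for mice 2 to 4. Mouse 1 was the lowest in each of its 3 groups, so that the groups overlapped, while mouse 2 of 4n-whole was above its own 2n-whole library. The log2 fold change against 2n-whole was -2.21 ± 0.46 in 4n-top (edgeR, adjusted p = 0.00851, lower in 3 of 3 mice), -1.61 ± 0.41 in 4n-bottom (adjusted p = 0.0790, lower in 4 of 4 mice) and -0.93 ± 0.40 in 4n-whole (adjusted p = 0.181, lower in 3 of 4 mice), where it was -1.48 without mouse 2 and -0.56 without mouse 4. Lama5 overlaps Adrm1, a protein-coding gene on the other strand. Without mouse 4 the adjusted p of Lama5 in 4n-top was 0.149, without mouse 3 it was 0.0613, and without the replicate block 0.501. In 4n-bottom, 4 of 14 alternatives called Lama5 lower. These were edgeR without a filter on low counts (adjusted p = 0.0209), edgeR on the compared groups only (0.0476), DESeq2 with the block (0.0205) and ComBat-seq before DESeq2 (0.000882). The last of them also called Lama5 lower in 4n-whole (0.0333).

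Of the other laminin chains, Lama3 was at 8.92 ± 3.84 CPM (SD, n = 4) in 2n-whole and 9.03 ± 3.24 in 4n-whole, Lamb3 at 4.03 ± 2.53 and 3.29 ± 1.2, and Lamc1 at 21.98 ± 2.71 and 21.8 ± 7.36, and none of them was called. Lamb1 reached at most 0.887 CPM, Lamb2 1.21 and Lamc3 2.10 CPM in any library, in each case in 2n-whole. The 11 laminin chains summed to 43.1 ± 6.19 CPM in 2n-whole, 37.1 ± 8.37 in 4n-whole, 38.3 ± 6.36 in 4n-bottom and 38.8 ± 2.69 (n = 3) in 4n-top. The sum was below that of the same mouse's 2n-whole library in 4 of 4 mice in 4n-whole, 3 of 4 in 4n-bottom and 3 of 3 in 4n-top, and was given no test.

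Col4a5 (chrX:140258354-140472231) codes for the alpha 5 chain of collagen IV, known for its part in the basement membrane of the kidney glomerulus. It had 5.23, 7.60, 4.73 and 5.12 CPM in the 2n-whole libraries of mice 1 to 4 and 2.19, 3.45, 2.37 and 2.40 CPM in 4n-whole. In 4n-bottom the values were 3.46, 4.61, 3.18 and 2.39 CPM, and in 4n-top 3.28, 1.88 and 5.37 CPM. All 2n-whole libraries were above those of 4n-whole and 4n-bottom, and mouse 4 of 4n-top was the 1 library of 4n cells that reached them. The log2 fold change against 2n-whole was -1.12 ± 0.28 in 4n-whole (edgeR, adjusted p = 0.0157, lower in 4 of 4 mice), -0.72 ± 0.27 in 4n-bottom (adjusted p = 0.339, lower in 4 of 4 mice) and -0.73 ± 0.31 in 4n-top (adjusted p = 0.353, lower in 2 of 3 mice). Without mouse 2 and without mouse 4 the adjusted p in 4n-whole was 0.0503 and 0.0532, and without the replicate block 0.160.

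The chains of collagen IV with which Col4a5 is known to assemble were lower still, with at most 0.486 CPM of Col4a3 and 0.721 CPM of Col4a4 in any library, and Col4a6, its neighbour on the X chromosome, did not meet the count rule. The common chains Col4a1 and Col4a2 were higher than Col4a5 and were not called. Col4a1 and Col4a2 lie head to head on chromosome 8, where the starts of their canonical transcripts are 317 bases apart and the 5′ ends overlap. Per library the ratio of Col4a1 to Col4a2 counts was 1.00 ± 0.0993 (SD, n = 4) in 2n-whole, 1.05 ± 0.180 in 4n-whole, 1.19 ± 0.151 in 4n-bottom and 0.939 ± 0.0890 (n = 3) in 4n-top, with 0.838 and 1.31 as the lowest and highest of the 15. The level of Col4a1 itself spanned 6.48 to 22.03 CPM, so the pair kept close to equal counts while its level varied more than 3 times between libraries. Collagen IV is also made by endothelial cells, and the endothelial marker sums given above varied between the same libraries. Their part in the levels of Col4a1 and Col4a2 was not tested.

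**Figure D3:**
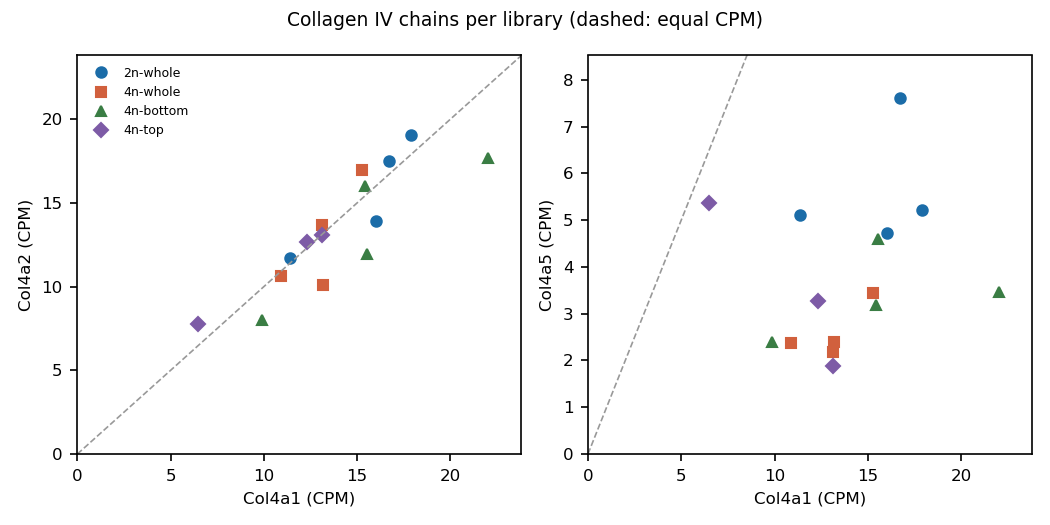
CPM of Col4a2 (left) and Col4a5 (right) against CPM of Col4a1 in the 15 libraries, with 1 symbol and colour per group and a dashed line where both are equal. Col4a1 and Col4a2 lie along the line from 6.48 to 22.03 CPM of Col4a1, while Col4a5 stays at or below 7.60 CPM and its 2n-whole libraries lie above those of 4n-whole and 4n-bottom.

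Of the remaining abundant members, Col18a1 was higher in 4n cells by less than the limit for a call. It stood at 1727, 1678, 1933 and 1643 CPM in 2n-whole and at 1742, 2701, 1980 and 2269 CPM in 4n-whole (mice 1 to 4). In 4n-bottom it had 1757, 2071, 2313 and 1860 CPM, and in 4n-top 2051, 2199 and 1958 CPM in mice 2 to 4. The groups overlapped, with each mouse higher in each 4n group than in 2n-whole. On the log2 scale the change was 0.31 ± 0.09 in 4n-whole (edgeR, adjusted p = 0.0517), 0.19 ± 0.09 in 4n-bottom (adjusted p = 0.498) and 0.19 ± 0.10 in 4n-top (adjusted p = 0.513). Without mouse 2 the change of Col18a1 in 4n-whole was 0.17 (adjusted p = 0.441), and without mouse 3 it was 0.39 (adjusted p = 0.0108). The 31 collagens together summed to 1937 ± 156 CPM (SD, n = 4) in 2n-whole, 2426 ± 502 in 4n-whole, 2215 ± 291 in 4n-bottom and 2280 ± 145 (n = 3) in 4n-top, and most of that sum is Col18a1.

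Itgav, the alpha chain of the integrins that bind vitronectin and latent TGF-beta, passed the adjusted p but not the limit on the fold, and is described after its values were seen. It had 57.3, 53.6, 64.1 and 58.9 CPM in the 2n-whole libraries of mice 1 to 4 and 43.2, 34.0, 55.2 and 45.7 CPM in 4n-whole. The 4n-bottom libraries held 46.4 to 50.2 CPM of Itgav and those of 4n-top 49.9 to 51.5 CPM, so 1 library of 4n-whole overlapped with 2n-whole. The fitted log2 fold change was -0.40 ± 0.11 in 4n-whole (edgeR, adjusted p = 0.0249, lower in 4 of 4 mice), -0.28 ± 0.11 in 4n-bottom (adjusted p = 0.344) and -0.21 ± 0.12 in 4n-top (adjusted p = 0.518). Of the beta chains that pair with it, Itgb1 had the levels given above and Itgb5 stood at 71.9 ± 6.10 CPM in 2n-whole, 80.9 ± 17.2 in 4n-whole, 80.6 ± 10.7 in 4n-bottom and 87.9 ± 2.92 (n = 3) in 4n-top. The ratio of Itgb1 to Itgav counts was 2.53 to 3.06 in 2n-whole and 3.16 to 3.92 in the 11 libraries of 4n cells, which did not overlap, and as a ratio picked from these values it was given no test. The ratio of Itgb5 to Itgav was 1.01 to 1.35 in 2n-whole and 1.29 to 2.78 in 4n libraries, which overlapped.

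**Figure D4:**
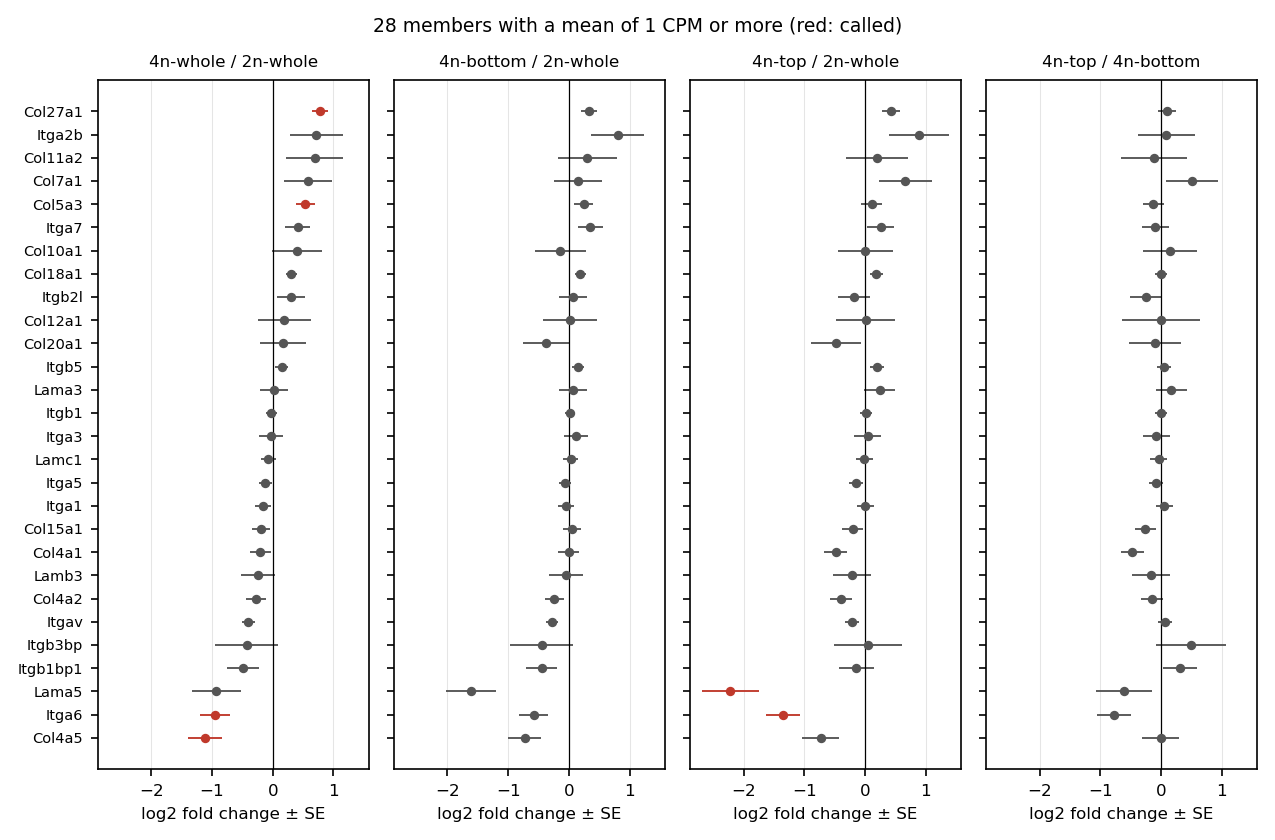
Log2 fold change with its SE from the edgeR fit for the 28 members with a mean of 1 CPM or more, in 4n-whole, 4n-bottom and 4n-top against 2n-whole and in 4n-top against 4n-bottom, with called members in red. Most members lie near 0, Col27a1 and Col5a3 stand to the right in 4n-whole, and Itga6, Col4a5 and Lama5 to the left.

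Among the 28 members with a mean of 1 CPM or more, the median log2 fold change was -0.03 in 4n-whole, 0.02 in 4n-bottom and 0.01 in 4n-top against 2n-whole, beside 0.02, 0.02 and 0.03 over all 11630 genes at that level. Over all 65 tested members it was -0.43, -0.38 and -0.48, beside -0.01, 0.00 and 0.00 over all genes, a difference that came from the 37 members under 1 CPM. Below 0 lay 31, 31 and 32 of these 37, beside 56.8%, 57.3% and 60.3% of the 5858 genes at that level. Nothing is read from this difference, since 18 of the 67 members would not have met the count rule on the 11 libraries of 4n cells alone. The place of these 18 in the list depended on 2n-whole, which favours higher values there. What part the rule had in the values of the others was not tested. In 2n-whole 47 members had 10 counts in at least 3 libraries, in 4n-whole 38, in 4n-bottom 39 and in 4n-top, with 3 libraries in all, 31. The rule was met with exactly 3 libraries by 13 members (among them Col1a2, Col6a1, Col9a3, Col16a1, Col17a1, Col22a1, Col28a1, Itgad, Itgb2, Itgb3, Lama1 and Lama2), and 5 symbols missed it with exactly 2 (Col4a6, Col6a4, Col6a5, Col11a1 and Col26a1).

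Every 2n-whole library was above every library of 4n cells for 3 of the 65 tested members, Itgb3, Itgb8 and Col14a1, which is 4.62% beside 0.652% of all genes, and for 0 members it was the reverse, beside 0.492% of all genes. These 3 were named after their values were seen, and all of them are among the 18 whose place in the list depends on 2n-whole. That choice favours a higher level in 2n-whole, so nothing is read from this share or from the calls of these 3 below. Itgb3, a chain of the platelet and vitronectin receptors, had 15, 8, 26 and 14 counts in the 2n-whole libraries of mice 1 to 4 and 0 to 3 counts in each of the 11 others, with 0 in all 3 of 4n-top. Itgb8, which pairs with the alpha v chain, had 35, 14, 26 and 14 counts in 2n-whole and at most 11 in the others. Col14a1, a collagen that lies along fibrils, had 21, 24, 21 and 11 counts in 2n-whole and at most 13 in the others. The edgeR test called none of the 3, with adjusted p between 0.173 and 0.740 in the comparisons with 2n-whole for Itgb8 and Col14a1 and between 0.178 and 0.460 for Itgb3. ComBat-seq before DESeq2 called all 3 lower in 4n-whole (adjusted p = 0.0420 for Col14a1, 0.0256 for Itgb3 and 0.0230 for Itgb8), and DESeq2 with the block called Itgb8 in 4n-whole (0.0376) and Itgb3 in 4n-top (0.0226). The platelet markers summed to at most 0.452 CPM, and Pf4 was at 0 in all 15 libraries.

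By the test of the mouse term in the same edgeR fit, chosen after the values were seen, 13 of 65 members differed among the 4 mice (20.0%), close to the 19.2% of all genes. Itga5 had the smallest adjusted p (2.25e-07). It was at 29.0 to 37.7 CPM in the 3 libraries of mouse 1 and at 34.5 to 41.1 CPM in mouse 4, but at 58.5 to 61.0 CPM in mouse 2 and 56.1 to 68.4 CPM in mouse 3, with no overlap between the pairs of mice. Itga5 did not follow the groups, with 49.6 ± 11.9 CPM (SD, n = 4) in 2n-whole, 46.3 ± 13.9 in 4n-whole, 49.1 ± 18.5 in 4n-bottom and 50.9 ± 14.2 (n = 3) in 4n-top.

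Lamc1, the common gamma chain of laminins (adjusted p = 0.000276 among the mice), had the same order, with 14.9 to 20.2 CPM in mice 1 and 4 and 24.0 to 30.5 CPM in mice 2 and 3. Col27a1 was lowest in mouse 1, at 29.9 to 48.2 CPM, and at 69.2 to 94.7 CPM in mouse 3 (adjusted p = 1.06e-05). Col15a1, a multiplexin of basement membranes and the relative of Col18a1 (adjusted p = 0.000266), was lowest in mouse 3 at 11.0 to 16.8 CPM and reached 18.2 to 34.9 CPM in the other 3. Itga9, an alpha chain that binds tenascin and osteopontin (adjusted p = 0.00256), had 0.693 to 2.62 CPM in mice 1 and 2 and 0 to 0.862 CPM in mice 3 and 4. The endothelial marker sum was 22.3 to 39.8 CPM in the libraries of mice 1 and 2 and 6.36 to 21.3 CPM in those of mice 3 and 4, and its part in the levels of Itga9 and Col15a1 was not tested. The other members called among the mice were Col5a3, Lama5, Col25a1, Col4a1, Col4a2, Itga1, Itga3 and Itgb3bp.

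**Figure D5:**
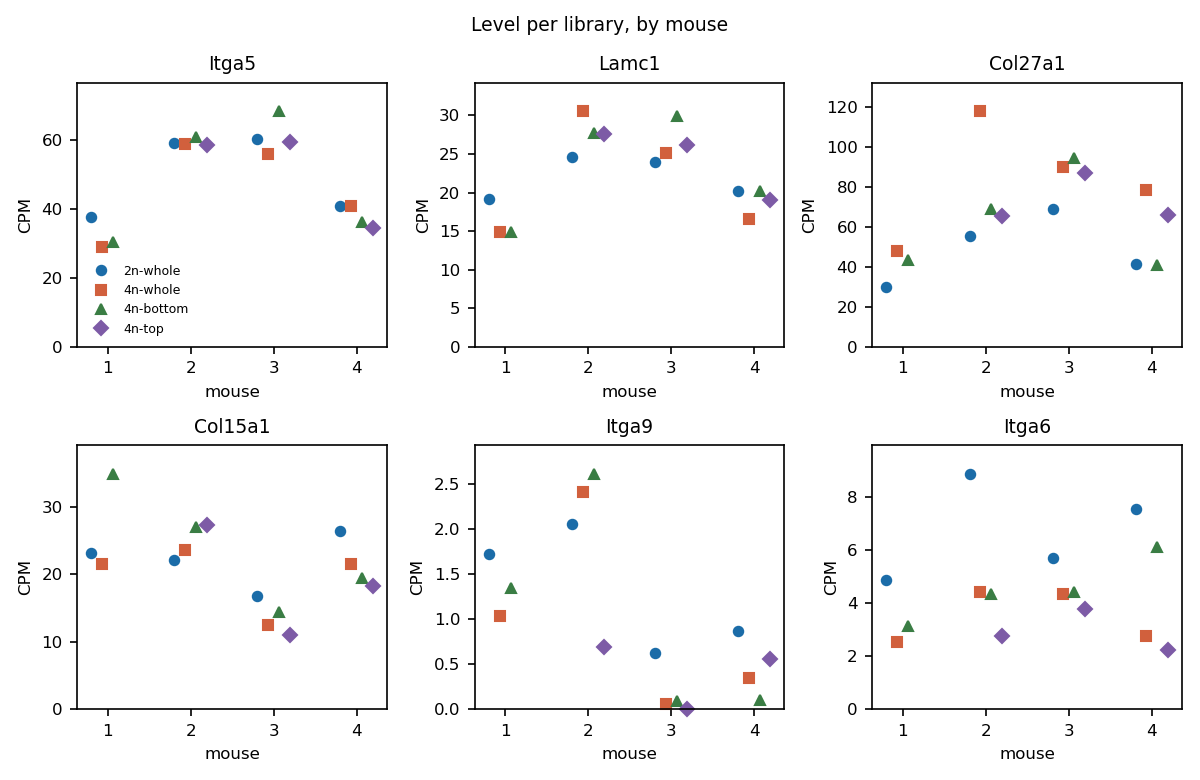
CPM per library by mouse (1 to 4, horizontal axes) for Itga5, Lamc1, Col27a1, Col15a1, Itga9 and Itga6, with 1 symbol and colour per group and axes that start at 0. Itga5 and Lamc1 are lower in mice 1 and 4 than in mice 2 and 3 whatever the group, while Itga6 is highest in 2n-whole in each mouse.

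Other genes of the same pathways came from lists of matrix and adhesion genes. Of 18 tested genes that modify or assemble collagen, 0 were called in any comparison by edgeR, and Bmp1, the protease that trims procollagen, had the smallest p, with 128 ± 24.8 CPM (SD, n = 4) in 2n-whole and 174 ± 38.2 in 4n-whole. Its change of 0.44 ± 0.09 on the log2 scale (adjusted p = 0.00392) stayed under the fold limit. Of 18 other basement membrane genes, 1 was called lower in each of the 4n groups and 0 higher. Of all genes, 1.73%, 0.229% and 0.520% were lower in 4n-whole, 4n-bottom and 4n-top, so the list differs from them by a single gene. It was Nid1, nidogen 1, which links laminin to collagen IV. The 2n-whole libraries held 6.28 to 12.0 CPM of Nid1, those of 4n-whole 1.13 to 3.28, those of 4n-bottom 1.2 to 3.49 and those of 4n-top 2.16 to 3.05, with no overlap between 2n and 4n cells. Its log2 fold change against 2n-whole was -2.18 ± 0.27 in 4n-whole (adjusted p = 6.53e-06), -1.77 ± 0.27 in 4n-bottom (adjusted p = 0.000472) and -1.92 ± 0.31 in 4n-top (adjusted p = 0.000324).

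Of 19 tested genes for other integrin ligands, 0 were higher and 3, 2 and 3 were lower in 4n-whole, 4n-bottom and 4n-top than in 2n-whole, beside 1.73%, 0.229% and 0.520% of all genes. Mfge8, a secreted protein that bridges apoptotic cells to alpha v integrins, had 11.1 to 15.8 CPM in 2n-whole and 1.65 to 6.75 CPM in the 4n libraries, with log2 fold changes of -2.07 ± 0.22, -1.59 ± 0.22 and -2.21 ± 0.26 in that order (edgeR, adjusted p = 7.71e-07, 0.000138 and 4.93e-06). Spp1, osteopontin, had 8.12 to 13.4 CPM in 2n-whole and 0.467 to 4.99 CPM in the 4n libraries, with -2.81 ± 0.38, -1.90 ± 0.36 and -2.73 ± 0.43 (adjusted p = 2.00e-05, 0.00720 and 0.000266). Spp1 is also a cholangiocyte marker and was counted as such above, and the part of cholangiocytes in its values was not tested. Cdh1, E-cadherin, a ligand of the integrin with the alpha E chain, fell in 4n-whole and 4n-top, by 0.63 and 0.58 on the log2 scale (adjusted p = 0.000246 and 0.00416), and without mouse 4 the adjusted p of Cdh1 in 4n-top was 0.381.

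Of 16 tested receptors for the matrix that are not integrins, 2, 1 and 1 were lower and 0 higher, beside 1.73%, 0.229% and 0.520% of all genes lower. Cd36, which binds thrombospondin and takes up fatty acids, was at 34.8 ± 7.02 CPM in 2n-whole against 16.7 ± 8.01, 14.1 ± 2.76 and 15.2 ± 6.56 (n = 3) in 4n-whole, 4n-bottom and 4n-top, and was called in all 3. Of 29 adaptors and kinases of focal adhesions, Ptk2b, a focal adhesion kinase, was called higher in 4n-whole (58.7 ± 7.14 against 39.2 ± 4.93 CPM, adjusted p = 0.00159, and 0.0546 without mouse 4) and Src, a kinase that acts beside it, lower in 4n-whole and 4n-top (adjusted p = 0.0116 and 0.0489, and 0.0774 and 0.522 without mouse 4, and 0.0545 in 4n-top without mouse 2), and 0 were called in 4n-bottom. Each of these calls is 1 gene of the 29, where 1.74% of all genes were called higher and 1.73% lower in 4n-whole, and 0.520% lower in 4n-top. Without mouse 2, Src was called in 4n-bottom (adjusted p = 0.00306), and without mouse 1, Ptk2b in 4n-bottom and 4n-top (0.00521 and 0.0172). Of 16 proteases and inhibitors of the matrix, 3, 1 and 2 were lower and 0 higher, beside 1.73%, 0.229% and 0.520% of all genes lower. Among them was Adamts1, a protease of proteoglycans, in all 3 groups (10.41 ± 5.39 CPM in 2n-whole and 3.96 to 4.35 CPM as means of the 4n groups). Without mouse 2 the adjusted p of Adamts1 in 4n-bottom was 0.0686. Reck, an inhibitor of matrix proteases, was called lower in 4n-whole and 4n-top, and without mouse 4 its adjusted p was 0.383 and 0.269. Without mouse 3 the adjusted p of Reck was 0.0814 and 0.0888, and without mouse 1 it was 0.0536 in 4n-whole. Between 4n-top and 4n-bottom, 0 genes of these lists were called by edgeR. Without the replicate block, Nid1, Mfge8 and Spp1 were still called in 4n-whole. None of the list genes named here was called in 4n-bottom or 4n-top, where the adjusted p of Nid1 was 0.5 and 0.124. Of all genes, that fit called 0 in 4n-bottom, and 1 higher and 1 lower in 4n-top.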

How the data were processed

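RNA from sorted hepatocytes of 4 mice (15 libraries) was sequenced after preparation with a stranded total RNA kit. The deposited values were whole-number read counts per gene, which the authors made, per the submitters' processing notes, with STAR 2.7.11a and featureCounts of the Subread package on GRCm39. The annotation and the strand and pair settings of the counting are not given in the sources used here, and 74.2% to 81.4% of counts from 1 to 10 were even. If both reads of a pair were counted, each printed count and the limit of 10 stand for fewer fragments, which could not be settled here. With counts halved, 42 members were tested and Col5a3 was the only call lost.

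Counts were analysed in R 4.3.3 with edgeR 4.0.16 (filterByExpr, TMM factors, glmQLFit and glmQLFTest), with all 15 libraries in 1 fit, the mouse as replicate block and Benjamini-Hochberg adjustment over 17488 genes. The mice pair the samples, since the subject number of the labels was taken to name the same animal in each group. The deviations of same-numbered libraries from their group means correlated with a mean r of 0.158 over 21 pairs (0.0845 to 0.227). No value for libraries with different numbers stands beside it, so it does not test the pairing. The alternatives were other size factors, other filters, DESeq2 1.42.0, ComBat-seq (sva 3.50.0) before DESeq2, no block, only the compared groups and each mouse left out. Scripts were tested on simulated data.

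The members and gene lists were chosen with earlier results of these data known. Named were the called members, the highest member per kb of exon of each role, the partner chains of called members and up to 3 genes per list with the smallest p, while Itgav, Itgb3, Itgb8, Col14a1 and the ratios to Itgav were chosen after their values were seen. The mouse test, the fit without mitochondrial genes and the fit without mouse 1 of 4n-bottom were added after the data were seen. Exon lengths and promoter windows came from GENCODE M39 (GRCm39). Some items are not reported here.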

Additional observations from a re-analysis of the deposited data

Results flagged for a closer look

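In 114 groups of 4 libraries, from 38 named members, a single library stood apart by Dixon's test at its 95% level in 3, where chance gives about 1 in 20. Col13a1 was lowest in mouse 1 of 2n-whole, at 0.197 CPM beside 0.487 to 0.513 CPM in the other 3. Col4a5 was highest in mouse 2 of 4n-whole, at 3.45 CPM beside 2.19 to 2.40 CPM. Col7a1 was highest in mouse 3 of 2n-whole, at 2.99 CPM beside 0.936 to 1.01 CPM. Groups of 3 libraries, here 4n-top, were not looked at in this way.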

How the results depend on the processing

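Without the replicate block, 0 members were called in 4n-whole against 2n-whole (4 with it), 0 in 4n-top against 2n-whole (2) and 0 over the 4 groups (3). Of all 17488 genes, that fit called 19 higher and 21 lower in 4n-whole (305 and 302 with the block). In 4n-top it called 1 higher and 1 lower (77 and 91 with the block). With ComBat-seq before DESeq2 there were 9, 7 and 11, and 2 in 4n-bottom against 2n-whole (0 in edgeR). Of all 17488 genes it called 534 higher and 663 lower in 4n-whole, 202 and 393 in 4n-top and 119 and 190 in 4n-bottom. DESeq2 with the block called 4 in 4n-top, 2 in 4n-bottom and 5 over the 4 groups. Its calls over all genes were 95 higher and 234 lower in 4n-top and 51 and 92 in 4n-bottom. Without a filter on low counts, 1 was called in 4n-bottom and 6 over the 4 groups, and with only the compared groups 2 in 4n-whole and 1 in 4n-bottom. Of 39304 genes, the fit without a filter called 73 higher and 72 lower in 4n-bottom. With only the compared groups, 135 were higher and 170 lower of 14828 in 4n-whole, and 46 and 46 of 14714 in 4n-bottom. Leaving out each mouse in turn gave 1 to 4 in 4n-whole, 0 to 2 in 4n-top and 1 to 4 over the 4 groups. Over all genes it gave 136 to 503 higher and 108 to 522 lower in 4n-whole, and 45 to 108 and 53 to 130 in 4n-top. Calls of all genes over the 4 groups are not given for these alternatives, so nothing is read from the member counts there. In 4n-top against 4n-bottom, 0 members were called under each alternative run. Changes of direction concerned values that were not called. For Col5a3 in 4n-top against 2n-whole, leaving out each mouse gave log2 fold changes of -0.0702 to 0.22. Between 4n-top and 4n-bottom it gave -0.15 to 0.19 for Col27a1, -0.65 to 0.30 for Col4a5 and -0.03 to 0.0175 for Col18a1. In the same comparison, Col4a5 was at 0.0414 without the replicate block, 0.0269 with ComBat-seq and 0.0386 without mouse 1 of 4n-bottom, and Col18a1 was at 0.0488 without the block. The cause of these changes was not tested. Members under 1 CPM rested on few counts, near the limit of 0.0693 to 0.120 CPM.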
